A study of Mus musculus with 29 samples.

Results

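The 7 genes of the mouse INK4 and CIP/KIP families of cyclin-dependent kinase (CDK) inhibitors, Cdkn1a, Cdkn1b, Cdkn1c, Cdkn2a, Cdkn2b, Cdkn2c and Cdkn2d, were followed in whole liver of aged and young mice. They were chosen by gene symbol, with earlier results of these data known, and are 7 of the 55421 genes in the count table. All 7 passed a filter on low counts over the 6 groups, as did 15293 genes in all. The bulk RNA-seq compared old mice given HDM201, a small molecule that keeps MDM2 from binding p53, with old and young mice given vehicle, separately in females and males. Old mice were C57BL/6J, 20 months old in females and 24 months old in males by the labels, and young mice of both sexes were C57BL6/N and 5 months old. The study's methods give the old females and the young mice ages that differ by 1 month from these. HDM201 was given at 10 mg/kg by gavage each day for 14 days, and every other mouse received vehicle. Counts cover 5 young vehicle, 4 old vehicle and 5 old HDM201 females, and 4 young vehicle, 4 old vehicle and 5 old HDM201 males. Of the 29 mice with labels, old vehicle male 1 and young vehicle male 5 have FPKM values and no counts here. Age and substrain change together, as do sex and age among old mice, so within each pair they cannot be told apart.

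CDK inhibitors stop the cell cycle before DNA replication. The CIP/KIP proteins p21 (Cdkn1a), p27 (Cdkn1b) and p57 (Cdkn1c) bind cyclin-CDK complexes and mainly restrain CDK2, while the INK4 proteins p16 (Cdkn2a), p15 (Cdkn2b), p18 (Cdkn2c) and p19 (Cdkn2d) bind CDK4 and CDK6 and keep D-type cyclins from activating them. Both routes keep RB family proteins bound to E2F. Cdkn1a is a direct transcriptional target of p53, which MDM2 marks for degradation, and Cdkn2a also encodes Arf, a protein that inhibits MDM2. p16 and p21 are widely used as markers of senescent cells.

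Depth, as the total of the gene counts, ran from 16485900 to 23570458 (median 19149235) over the mice. Levels are given as CPM, counts scaled to library sizes that TMM factors adjust. Of 10 hepatocyte markers 9 were found, all with counts in every group, and their summed level was between 87925 and 169785 CPM. A gene was called where edgeR's quasi-likelihood test gave an FDR (Benjamini-Hochberg, over all genes tested) under 0.05. SE stands for the standard error of a log2 fold change. The labels do not say more of how replicate mice were housed or collected, and they name no batch. Since whole liver was sequenced, fewer cells of a type and less RNA per cell cannot be told apart in any value here.

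**Figure D1:**
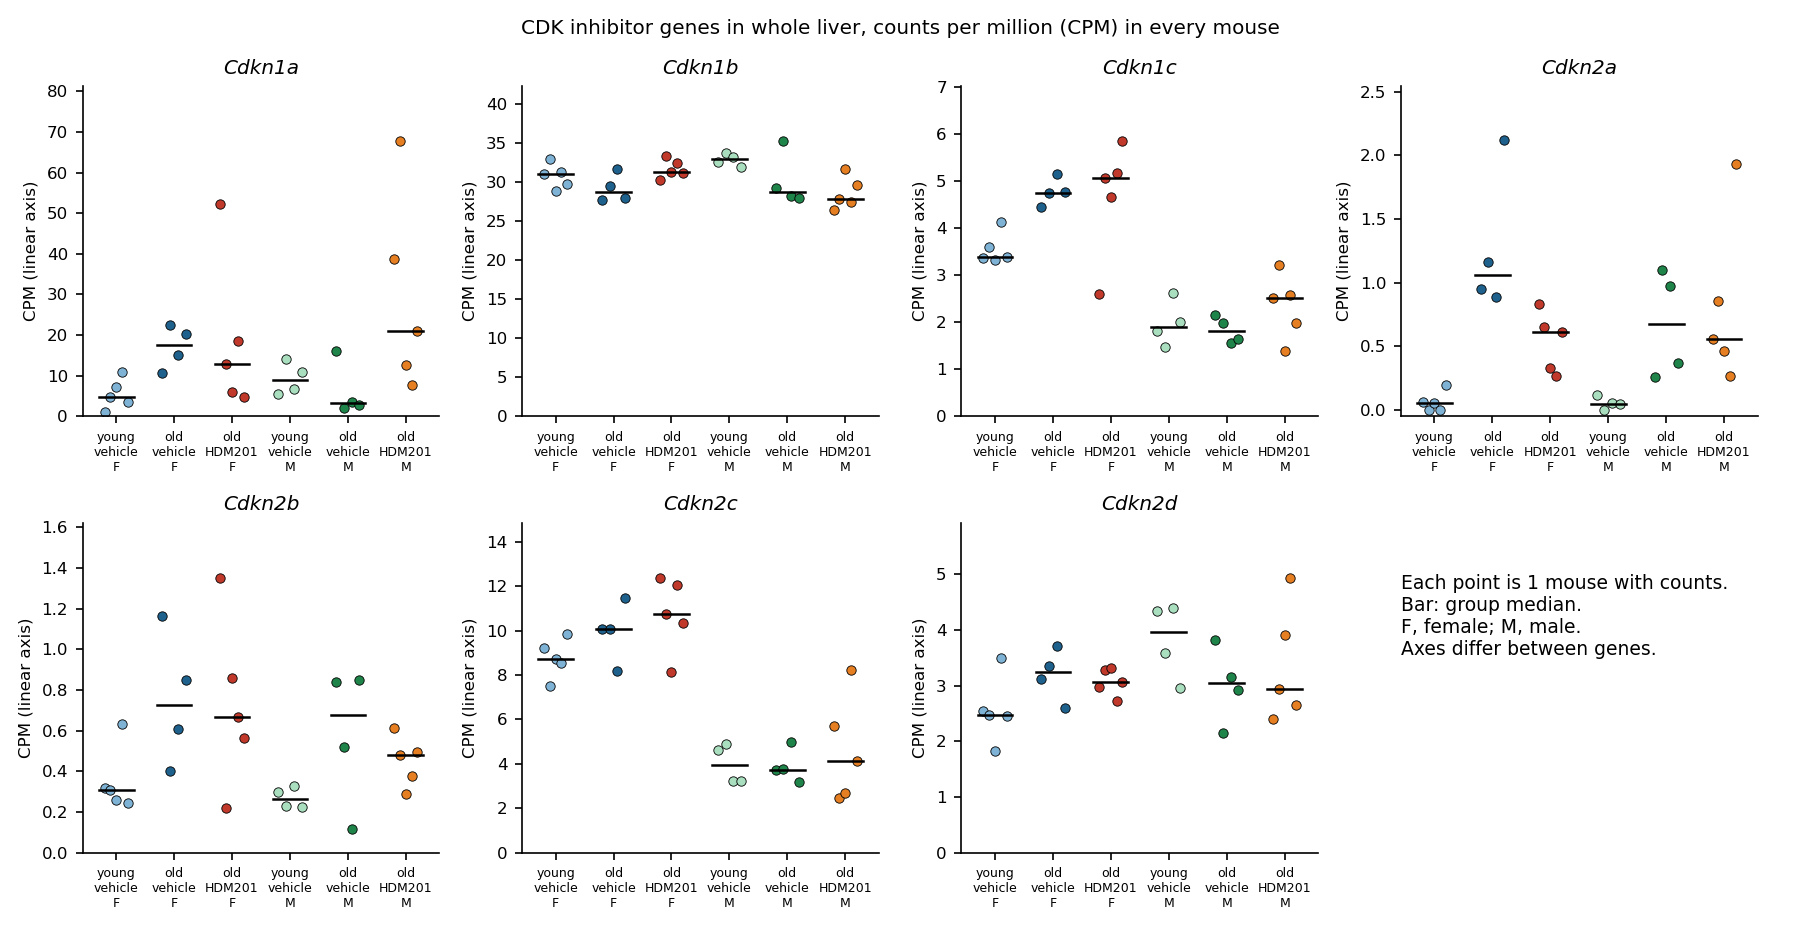
CPM of the 7 CDK inhibitor genes (linear axis, a separate scale for each gene) in the 27 mice with counts, by group; each point is a mouse and each bar the group median. Cdkn1b stayed between 26.5 and 35.3 CPM, Cdkn1c and Cdkn2c separated the young sexes, Cdkn2a was near 0 in both young groups, and Cdkn1a spread from 1.08 to 67.8 CPM.

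The 7 genes differed in level and in how evenly mice expressed them. On the FPKM scale, which accounts for transcript length, Cdkn1b had the highest median of the 7 in old HDM201 females, old vehicle males and both young groups, from 9.16 to 11.8 FPKM. In old vehicle females and old HDM201 males Cdkn1a had the highest median, 9.97 and 11.9 FPKM, but its range overlapped that of Cdkn1b, at 9.78 and 9.71 FPKM. Cdkn2c had medians from 7.21 to 7.84 FPKM in the groups of females and from 2.73 to 2.93 FPKM in those of males. Cdkn2b and Cdkn2a had the lowest medians in every group except old vehicle males, where Cdkn2a at 1.19 FPKM and Cdkn1c at 1.02 FPKM overlapped. The coefficient of variation of CPM within a group was 2.31% to 11.4% for Cdkn1b and 31.3% to 108% for Cdkn1a.

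Cdkn1a lies on chromosome 17 of GRCm38, at chr17:29090976-29100727 on the plus strand, with 4 coding transcripts of 5. RefSeq (GRCm38.p6) places its first exons at a pair of start sites. The 250 bases before each are shown because p53 activates this gene through its upstream sequence. Capitals mark a match to the p53 consensus in the first window and GGGCGG, the core of the Sp1 motif, in the second. The first window is chr17:29090729-29090978 and the second chr17:29093519-29093768, both on the plus strand.

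Cdkn1a window 1: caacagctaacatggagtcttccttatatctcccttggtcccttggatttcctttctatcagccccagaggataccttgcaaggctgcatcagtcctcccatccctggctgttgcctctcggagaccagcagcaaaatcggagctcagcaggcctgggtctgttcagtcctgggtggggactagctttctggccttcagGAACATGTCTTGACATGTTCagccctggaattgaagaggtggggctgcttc

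Cdkn1a window 2: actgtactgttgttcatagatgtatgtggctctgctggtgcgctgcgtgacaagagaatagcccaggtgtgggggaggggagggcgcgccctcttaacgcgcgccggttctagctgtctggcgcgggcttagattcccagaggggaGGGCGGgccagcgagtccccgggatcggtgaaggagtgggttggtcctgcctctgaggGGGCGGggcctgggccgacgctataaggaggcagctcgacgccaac

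The p53 consensus was searched as 20 bases without a spacer, on both strands, with at most 1 mismatch outside the core of each 10-base repeat. The match, at chr17:29090928-29090947, lies 51 to 32 bases before the first start site and has 1 mismatch. Such a match stood in 15 of 32851 windows of this length, 0.0457%, and among the 9 windows of the CDK inhibitors only in this one. RefSeq windows were found for 6 of the 7 genes and not for Cdkn1c. Searched on both strands, GGGCGG was present in 32.7% of all windows, and CACGTG, the E-box bound by CLOCK and BMAL1, in 6.02% and in none of the 9. A match is a description of these letters and not a bound site.

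In females Cdkn1a was at 10.6, 22.4, 14.996 and 20.3 CPM in the old vehicle mice, at 52.2, 13.0, 6.05, 18.5 and 4.76 CPM in the old HDM201 mice, and at 1.08, 4.62, 7.17, 10.9 and 3.39 CPM in the young vehicle mice. A single HDM201 female was above every old vehicle female, and 2 were below all of them. The difference between HDM201 and vehicle was 0.12 on the log2 scale (SE 0.57, edgeR FDR 0.925, 95% CI -1.12 to 1.36), and it was -0.71 without HDM201 female 1. With age Cdkn1a rose by 1.68 (SE 0.41, FDR 0.00853), a call that was lost in the fit of all 6 groups (1.65, SE 0.68, FDR 0.0679), and the lowest old female, at 10.6 CPM, lay just under the highest young one.

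In males Cdkn1a was at 38.7, 67.8, 12.7, 7.57 and 21.1 CPM in the old HDM201 mice and at 16.1, 2.15, 3.62 and 2.71 CPM in the old vehicle mice. Every HDM201 male lay above 3 of the 4 vehicle males with counts, and vehicle male 2, at 16.1 CPM, lay above 2 of the HDM201 males. Old vehicle male 1, which has no counts and is in no edgeR fit, was at 19.3 FPKM. On that scale the HDM201 males had 22.1, 34.8, 6.81, 4.28 and 11.9 FPKM and the other vehicle males 1.14 to 8.39 FPKM. The fitted level was 4.79-fold higher with HDM201 (log2 fold change 2.26, SE 0.74, 95% CI 0.63 to 3.89). With an edgeR FDR of 0.298 over 14109 genes the difference was not called. In this comparison 0.00709% of all genes were called in either direction. Leaving out each male in turn gave log2 fold changes from 1.71 to 3.39 and FDR from 0.224 to 0.583. The interaction, female effect of HDM201 minus male effect, was -2.13 (SE 1.01, FDR 0.266), where 0.107% of genes were called, so a difference between the sexes was not shown.

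Young vehicle males had Cdkn1a at 5.36, 14.0, 6.74 and 10.9 CPM, above 3 of the 4 old vehicle males. Old minus young in males was -0.58 (SE 0.59, FDR 0.613), and -1.70 (FDR 0.0417) without old vehicle male 2, the male at 16.1 CPM. The direction with age was thus opposite in the estimates of the sexes, with an interaction of 2.27 (SE 0.80, FDR 0.106), which reached an FDR of 0.0153 without that male. These fits do not hold old vehicle male 1, at 19.3 FPKM, or young vehicle male 5, at 31.4 FPKM. Old HDM201 males set against young vehicle males had 1.68 (SE 0.57, FDR 0.0604), and old HDM201 females against young females 1.80 (SE 0.63, FDR 0.0479). The female call was lost when any of 7 of the 10 mice was left out, and it fell to 0.96 (FDR 0.176) without HDM201 female 1. It was also lost with DESeq2 (1.80, adjusted p = 0.0717) and by limma on log2(FPKM + 1) (1.29, FDR 0.118). These comparisons share their old or young mice with those above.

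Trp53, the gene of p53 itself, had group means from 25.9 to 29.9 CPM and was not called in any comparison of 2 groups. Mdm2 was higher in HDM201 females than in old vehicle females (log2 fold change 0.33, FDR 0.0350), while in males the difference was 0.00 (SE 0.08). Of 27 other p53 targets tested in females 1 was called with HDM201, that is Mdm2, beside 5.25% of all genes, and of 28 in males none was called, with a median of 0.10 in both sexes beside 0.0010 and 0.014 over all genes tested. With age 9 of 27 rose and 1 fell in females, a share of 37% called beside 31.8% of all genes. Phlda3 (1.77) and Eda2r (1.55) were among those that rose, and Phlda3 (1.22) and Eda2r (2.87) were also higher in old than in young males.

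**Figure D2:**
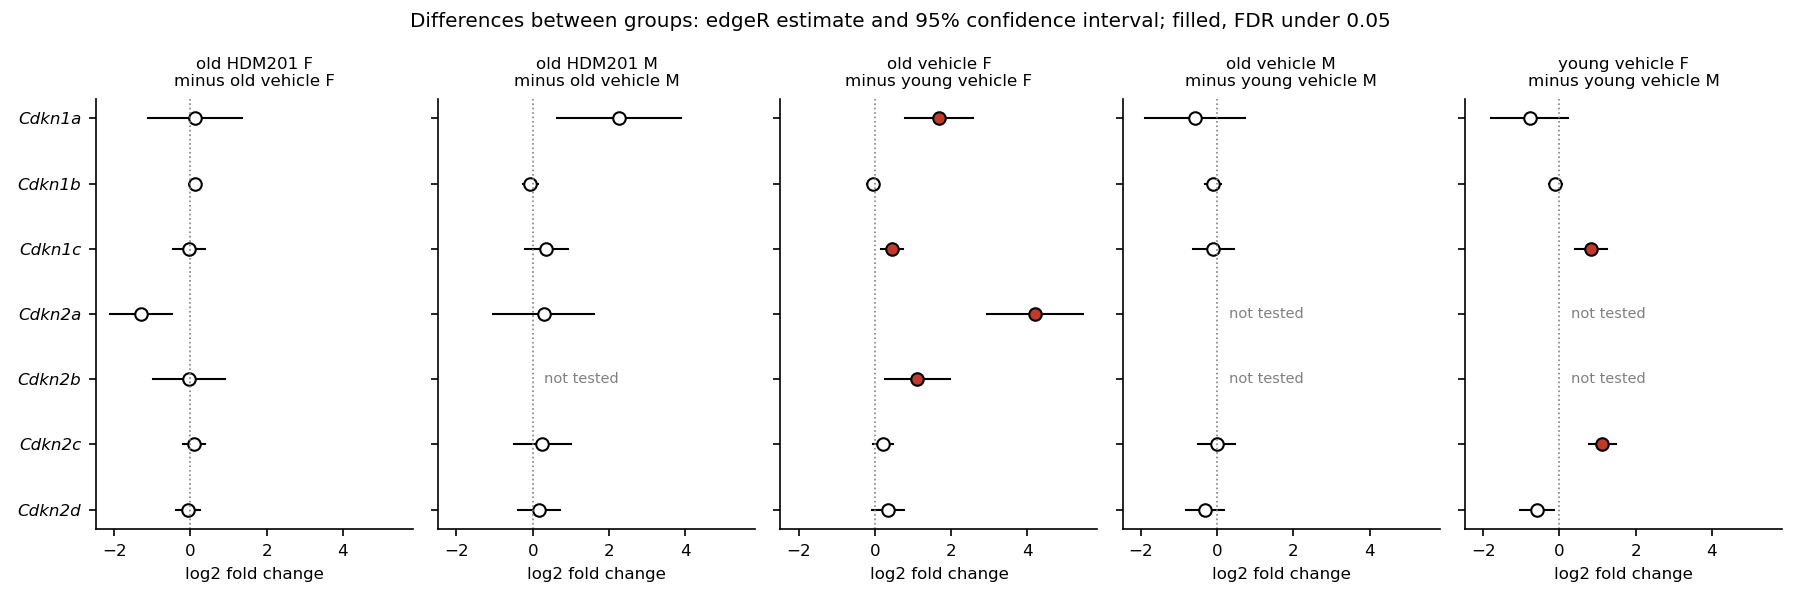
Log2 fold changes of the 7 genes in 5 comparisons of 2 groups (x axis, log2 scale; points, edgeR estimates; lines, 95% confidence intervals; filled, FDR under 0.05; "not tested", below the filter on low counts). The calls stand in the comparison of old with young females (Cdkn1a, Cdkn1c, Cdkn2a, Cdkn2b) and of young females with young males (Cdkn1c, Cdkn2c).

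Cdkn1b (chr6:134920401-134925513, plus strand), which encodes p27, the inhibitor that mainly keeps resting cells out of cycle, was the most even of the 7. Group means ran from 28.6 to 32.9 CPM, and all 27 mice lay between 26.5 and 35.3 CPM. HDM201 minus vehicle was 0.11 (SE 0.06, FDR 0.348) in females and -0.07 (SE 0.09, FDR 0.790) in males. Old minus young was -0.06 (SE 0.07) in females and -0.12 (SE 0.09) in males, with 95% intervals of -0.21 to 0.10 and -0.33 to 0.09. Among the comparisons of 2 groups fitted here, the groups lay apart in that of old HDM201 males, at 26.5 to 31.7 CPM, with young vehicle males, at 32.0 to 33.7 CPM. That difference was -0.19 (SE 0.08, FDR 0.0955) and was not called, although it was in the fit of all 6 groups (FDR 0.0321), and 8.77% of all genes lay apart in this direction in that comparison.

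Cdkn1c (chr7:143458339-143461050, minus strand) encodes p57, an inhibitor from an imprinted locus best known from development. Young vehicle females had 3.37, 3.60, 3.33, 4.13 and 3.39 CPM and young vehicle males 1.81, 1.48, 2.61 and 2.00 CPM, with no overlap. The level was 1.78-fold higher in young females (log2 0.83, SE 0.19, FDR 0.0179), where 5.63% of all genes were called higher in females and 7% lay apart in this direction. Old vehicle females had 4.45, 4.75, 5.15 and 4.76 CPM, all above the young females, a 1.36-fold difference (log2 0.44, SE 0.13, FDR 0.0218). Of all genes 31.8% were called in this comparison, 16.8% were called higher, and 12.5% lay apart in this direction. The call was lost without old vehicle female 3 (FDR 0.0554), without the filter (FDR 0.0749) and in the fit of all 6 groups (FDR 0.114). Old vehicle males, at 2.15, 1.97, 1.55 and 1.65 CPM, did not differ from young males beyond the spread (-0.10, SE 0.24, FDR 0.838), and the interaction of sex and age was 0.56 (SE 0.24, FDR 0.180). In HDM201 females Cdkn1c was at 5.07, 4.66, 5.17 and 5.85 CPM in 4 mice and at 2.60 CPM in female 1, the mouse with the highest Cdkn1a of all females. An antisense gene, Gm44732, shares 625 exonic bases with Cdkn1c but had only 9 counts over 27 mice against 1703.

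Cdkn2a (chr4:89274471-89294653, minus strand) has 2 coding transcripts that begin 5′ at separate first exons, the one nearer to the shared exons encoding p16 and the one farther upstream encoding Arf. Of the 852 exonic bases of the p16 transcript and the 895 of the Arf transcript 575 are shared, so a gene count cannot say which was made. The 250 bases before both RefSeq start sites (minus strand, read 5′ to 3′) are shown because the signal of the gene adds up both. Window 1, before the Arf start, is chr4:89294620-89294869, and window 2, before the p16 start, is chr4:89282193-89282442. Capitals mark GGGCGG, which occurs 2 times in window 1 and not in window 2.

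Cdkn2a window 1: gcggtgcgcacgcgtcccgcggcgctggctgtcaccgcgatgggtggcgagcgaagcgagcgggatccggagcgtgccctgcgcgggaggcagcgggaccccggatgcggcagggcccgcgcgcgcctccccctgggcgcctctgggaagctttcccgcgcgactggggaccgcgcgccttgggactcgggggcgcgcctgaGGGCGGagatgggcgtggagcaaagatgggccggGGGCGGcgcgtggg

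Cdkn2a window 2: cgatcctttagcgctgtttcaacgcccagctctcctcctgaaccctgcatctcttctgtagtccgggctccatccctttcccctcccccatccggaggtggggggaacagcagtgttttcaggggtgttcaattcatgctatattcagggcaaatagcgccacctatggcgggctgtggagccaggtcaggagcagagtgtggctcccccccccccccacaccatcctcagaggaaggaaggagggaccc

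In young mice Cdkn2a was barely counted. The 5 young females had 1, 0, 1, 0 and 4 reads and the 4 young males 2, 0, 1 and 1 reads, and a count of 0 in a mouse allows up to 3 counts by counting error alone. Old vehicle females had 18, 26, 16 and 45 reads (0.954, 1.16, 0.885 and 2.12 CPM). The mean CPM of 1.28 against 0.0624 corresponded to a fitted 18.4-fold rise (log2 4.20, SE 0.58, FDR 3.23e-04), from 105 reads in 4 mice against 6 reads in 5. This was the largest difference among the CDK inhibitors and kept an FDR of at most 0.00128 whichever mouse was left out.

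Old vehicle males had 5, 19, 17 and 7 reads (0.262, 1.10, 0.976 and 0.371 CPM), every one above every young male. The gene fell below the filter in that comparison. Fitted without the filter, the difference was 3.48 (SE 0.75, FDR 0.0123), a mean CPM ratio of 12.3 from 48 reads against 4, where 3.56% of genes were called and 5.07% lay apart in this direction. The interaction of sex and age was 0.72 (SE 1.33, FDR 0.812) and its 95% interval, -2.08 to 3.51, leaves wide room on both sides.

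With HDM201, Cdkn2a was at 0.833, 0.655, 0.327, 0.267 and 0.613 CPM in old females (16, 12, 8, 6 and 13 reads), every mouse below every old vehicle female. The difference was -1.29 (SE 0.37, 95% CI -2.10 to -0.47), with an edgeR FDR of 0.0683, so it was not called. None of the 7 genes was called in this comparison, where 5.25% of all genes were, and only Cdkn2a had an unadjusted p under 0.05. Groups lay apart with lower HDM201 values in 4.63% of all genes. DESeq2 called Cdkn2a (-1.28, adjusted p = 0.0330). Leaving out each female in turn gave -1.50 to -0.93, with FDR from 0.0531 to 0.197. HDM201 females were above young females, at 55 reads against 6 (2.93 without the filter, SE 0.64, FDR 0.00183, where 13.3% of genes were called). In old HDM201 males the values were 0.559, 0.855, 0.461, 0.269 and 1.93 CPM, which overlapped the vehicle males (0.29, SE 0.60, FDR 0.875). Set against young males, these were 74 reads against 4 (3.76 without the filter, SE 0.76, FDR 0.00315, where 9.88% of genes were called). The interaction with sex was -1.56 (SE 0.74, FDR 0.268).

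Markers of macrophages and Kupffer cells moved in the same direction as Cdkn2a in the female comparisons. Their summed level over 12 markers, none of which was at 0 in any group, was 329 to 486 CPM in young females, 536 to 1099 CPM in old vehicle females and 328 to 532 CPM in old HDM201 females. With age 11 of 12 were called higher, where 16.8% of all genes were (median log2 1.13, beside 0.0094 over all genes). With HDM201 11 of 12 were called lower (median -1.05, beside 0.0010), where 5.25% of all genes were called in either direction. In males the sums were 149 to 302 CPM in young, 239 to 702 CPM in old vehicle and 345 to 900 CPM in old HDM201 mice. With age in males 4 of 12 were called higher, where 3.69% of all genes were called in either direction. Of 9 B and plasma cell markers 8 were called higher with age in females, beside the same 16.8%. Their sums were 218 to 286 CPM in young and 520 to 586 CPM in old vehicle mice. With HDM201 1 was called lower, beside 5.25% of all genes called in either direction, and the sums were 358 to 520 CPM. In females the median T and NK cell sums were 5.45 CPM in young, 7.88 CPM in old vehicle and 5.67 CPM in HDM201 mice. The median neutrophil sums were 0.617, 13.2 and 3.97 CPM in the same order. In both lists the ranges of the old groups overlapped. The median cholangiocyte sums, 64.9, 79.1 and 119 CPM, rose at each step. The part of these cells in the Cdkn2a values was not tested.

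Cdkn2b (chr4:89306299-89311039, minus strand) neighbors Cdkn2a and encodes p15, an inhibitor that TGF-beta induces. Young females had 0.318, 0.308, 0.260, 0.632 and 0.246 CPM and old vehicle females 1.17, 0.403, 0.609 and 0.848 CPM. Of the old females 2 stood above every young one, and the other 2 lay within the range of the young. The rise was 2.16-fold (log2 1.11, SE 0.40, FDR 0.0484) and rested on 60 reads against 32. The call was lost under each alternative fit of all the mice. Its FDR was 0.0505 with RLE size factors and 0.0899 without the filter (DESeq2 adjusted p = 0.0844), and higher with the replicate block, as given below. The call was also lost when any of 7 mice was left out. In males 43 reads in old vehicle and 20 in young mice gave 1.09 without the filter (SE 0.56, FDR 0.377). With HDM201 the female difference was -0.04 (SE 0.44, FDR 0.970), and the HDM201 females ranged from 0.218 to 1.35 CPM.

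Cdkn2c (chr4:109660876-109667189, minus strand), which encodes p18, separated the sexes rather than age or treatment. Young vehicle females had 9.21, 7.50, 8.73, 8.56 and 9.83 CPM and young vehicle males 4.64, 4.89, 3.21 and 3.22 CPM. The 2.18-fold difference (log2 1.13, SE 0.16, FDR 0.00122) held under every alternative tried for it. Old vehicle females, at 10.1, 10.1, 8.19 and 11.5 CPM, did not lie apart from young ones (0.20, SE 0.12, FDR 0.217), nor did old vehicle males, at 3.72, 3.77, 5.00 and 3.18 CPM (-0.01, SE 0.22, FDR 0.977). HDM201 males ranged from 2.46 to 8.22 CPM, the widest group of this gene, with male 4 at the top and within the range of the females.

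Cdkn2d (chr9:21288410-21291407, minus strand), which encodes the INK4 protein p19 and not Arf, had a narrow range. Its 27 values lay between 1.82 and 4.94 CPM. Young females were at 1.82 to 3.50 CPM and young males at 2.95 to 4.40 CPM, a difference of -0.59 (SE 0.21, FDR 0.0877) in the direction opposite to Cdkn2c that was not called. HDM201 minus vehicle was -0.07 (SE 0.15, FDR 0.837) in females and 0.17 (SE 0.25, FDR 0.820) in males, and old minus young was 0.34 (SE 0.20, FDR 0.206) and -0.33 (SE 0.22, FDR 0.428).

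Counted by comparison, 4 of 7 tested CDK inhibitors were called with age in females, all higher, beside 31.8% of all genes called and 16.8% called higher. Between the young sexes 2 of 5 were called, both higher in females, beside 10.5% of all genes called and 5.63% called higher in females. With age in males none of 5 was called beside 3.69% of all genes, and none had an unadjusted p under 0.05, while DESeq2 called Cdkn2a. With HDM201 none of 7 in females and none of 6 in males was called, beside 5.25% and 0.00709% of all genes, and DESeq2 called 1 and 0. In old HDM201 against young mice 1 of 6 was called in females (Cdkn1a, and by DESeq2 Cdkn2a in its place), beside 26.8% of genes, and 0 of 5 in males, beside 19.2%, where 2 had an unadjusted p under 0.05 and DESeq2 called Cdkn2a. The interactions with sex called none of 7 (0.107% of genes for HDM201 and 3.92% for age), with 2 and 3 at an unadjusted p under 0.05 and none by DESeq2. The comparisons of age and of HDM201 share the old vehicle mice.

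Partners and targets of the inhibitors were read from lists. The counts with age in females are to be read against the 31.8% of all genes called there, 16.8% as higher, and those with HDM201 in females against 5.25%. Of 7 cyclins and kinases of G1 tested with age in females 3 rose, the D cyclins Ccnd1 (0.72, FDR 0.0460), Ccnd2 (0.68, FDR 0.0104) and Ccnd3 (0.45, FDR 0.00261), and none fell. Cdk4 (-0.01), Cdk6 (-0.24) and Cdk2 (-0.08) did not pass. In old against young males 1 of 8 rose, Ccnd1 (1.67, FDR 0.0497), beside 3.69% of all genes called. With HDM201 in females 1 of 8 rose, again Ccnd1, from 57.8 to 81.2 CPM in vehicle mice to 90.3 to 181 CPM with HDM201 (1.01, SE 0.18, FDR 0.0125), while Ccnd3 was at -0.24 (FDR 0.0923). In males the Ccnd1 difference was 0.86 (SE 0.47, FDR 0.476). Ccnd1, which carries CDK4 and CDK6 into the cycle, was also 6.65-fold higher in young females than in young males (2.73, FDR 5.57e-04), whereas Ccne1, which activates CDK2, was lower in females (-2.72, FDR 0.00170).

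Of 19 RB family, E2F and DREAM genes 4 rose with age in females, among them E2f1 (0.80), and 3 fell, Lin52 (-0.47), Rbl2 (-0.35) and Rbbp4 (-0.32), so that 36.8% were called beside 31.8% of all genes. None of 19 was called with HDM201 in either sex. Of 18 proliferation genes tested with age in females 6 rose, led by Mki67 (2.33) and Top2a (1.85), and 1, Rrm2 (-1.04), fell, which is 38.9% called beside the same 31.8%. With HDM201 in females 1 of 20 changed, Top2a (-1.31, FDR 0.0491). In males all 22 proliferation genes tested had estimates above 0 with HDM201, with a median of 0.49 beside 0.01 over all genes tested, and none was called. The 22 were measured in the same mice and are not separate results. Mki67 had medians of 1.61 CPM in HDM201 males and 1.56 CPM in vehicle males, with highest values of 6.71 and 2.87 CPM. Of 10 genes of the ubiquitin ligases that remove CDK inhibitors 3 fell with age in females, Ubac1 (-0.44), Cul4a (-0.34) and Skp1a (-0.24), a share of 30% that is near the 31.8% of all genes, and none changed with HDM201 in either sex. Skp2, the receptor that marks p27 and p57 for degradation, was lower in young females than in young males (-0.93, FDR 0.0192). Of 27 transcription regulators of these genes Klf6, an activator of Cdkn1a, rose with HDM201 in females (0.51, FDR 0.00987) beside Mdm2, and in old females Stat3 (0.70), Id2 (0.60) and Ets1 (0.35) were higher and Foxo3 (-0.53) lower than in young females.

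The genes whose levels were most like those of Cdkn1a over the 27 mice, by Pearson's r of log2(CPM + 1), were Clpx, Leo1, Lgalsl, Chka and Arntl, with r from 0.79 to 0.82 and Spearman's rho from 0.80 to 0.83. Clpx, a subunit of a mitochondrial protease, had r = 0.86 in the 14 females and 0.87 in the 13 males. Arntl encodes BMAL1, an activator of the circadian clock, and had r = 0.82 in females and 0.79 in males. HDM201 females 3 and 5, the lowest of their group in Cdkn1a, had Arntl at 4.70 and 1.46 CPM, while the others had 10.1 to 27.4 CPM. Within groups, with each group's mean removed, Clpx (0.81), Chka, Eif1a, Gldc and Arntl (0.76) were most like Cdkn1a. With age in females 4 of 19 clock genes rose and 8 fell, led by Npas2 (3.47), Ciart (-3.22) and Dbp (-2.93), which is 63.2% called beside 31.8% of all genes. The points share libraries, groups and sequencing, these genes are the highest of many, and the study's methods place tissue collection in the morning without an hour for each mouse.

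**Figure D3:**
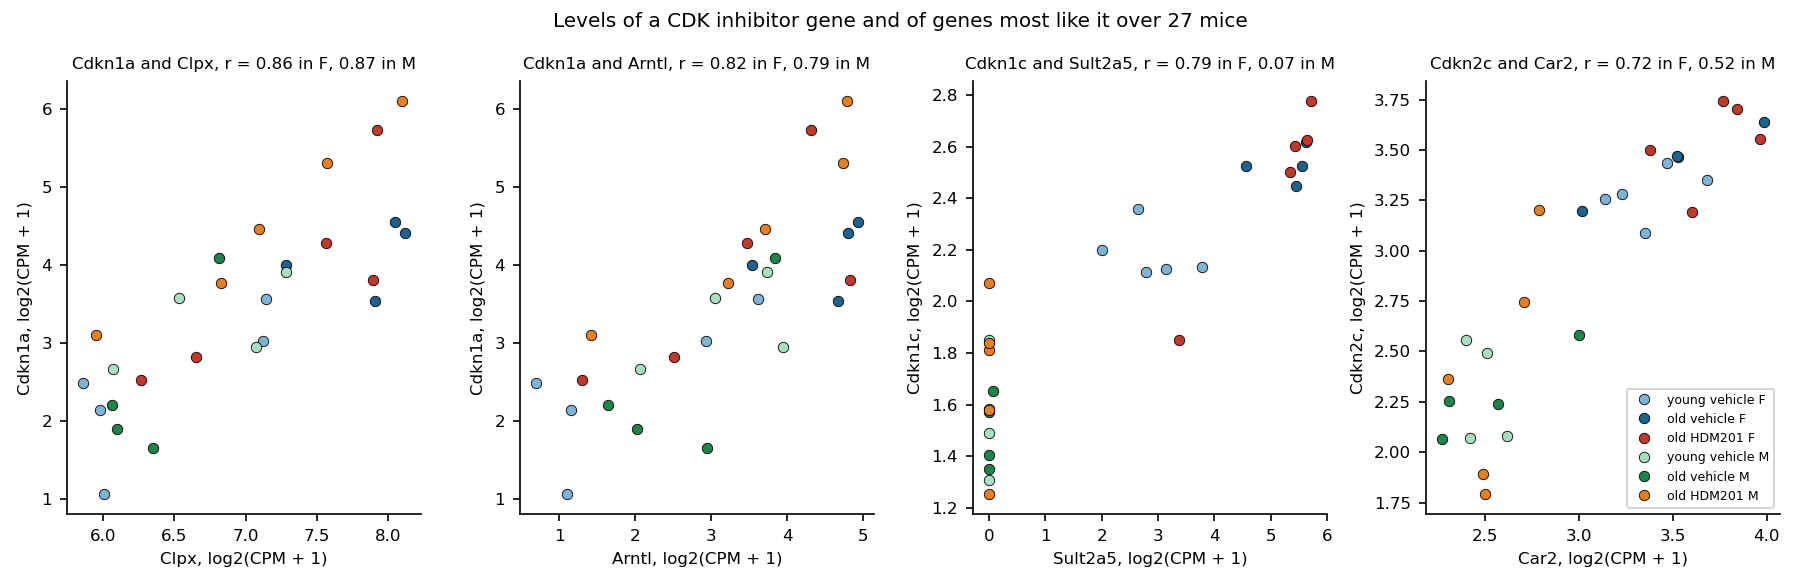
Levels of Cdkn1a, Cdkn1c and Cdkn2c (y axes) against genes among the 5 most like each (x axes), both as log2(CPM + 1), in the 27 mice with counts, colored by group. Cdkn1a followed Clpx and Arntl in both sexes, whereas the clouds of Cdkn1c and Cdkn2c fall apart by sex. The r within males was 0.52 for Car2. For Sult2a5 it was 0.07, with old vehicle male 2 at 0.0524 CPM and every other male at 0 CPM.

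For Cdkn2a the most like were Ptpn1, Cd207, Map1s, Dok3 and Ier5, with r from 0.84 to 0.87 over all mice. Cd207 had r = 0.89 in females and 0.87 in males. Dok3, an adaptor of blood cells, had 0.80 and 0.91. Cdkn2a was near 0 in both young groups, so these r include the difference between young and old mice. Within groups, with each group's mean removed, Dok3 (0.77), Cxcl13, Scly, Prpsap2 and Pdss2 (0.73) were most like Cdkn2a. Without the 2 mice farthest from the median Dok3 had 0.66. The mice fell into 2 clusters by sex for Cdkn1c and Cdkn2c, so r is given within each sex. Sult2a5, a sulfotransferase, had r = 0.79 with Cdkn1c in females, which includes the difference between young and old females. In males Sult2a5 was at 0.0524 CPM in old vehicle male 2 and at 0 CPM in every other mouse. The r of 0.07 in males rests on that value and does not describe a relation. Vldlr had r = 0.90 in females and 0.09 in males. Within groups neither Sult2a5 nor Vldlr was among the 5 most like Cdkn1c, which were Skp2 (0.77), Pfdn1, Isca1, Rpgr and Ntrk2 (0.64). Without the 2 mice farthest from the median, HDM201 female 1 and HDM201 male 3, these r were 0.56, 0.63, 0.63, 0.40 and 0.46 in that order. Car2, a carbonic anhydrase, had r = 0.72 with Cdkn2c in females and 0.52 in males, and Cyp3a44, a cytochrome P450, had 0.68 and 0.42. For Cdkn1b, Cdkn2b and Cdkn2d the highest r over all mice were 0.74 (C330022C24Rik), 0.68 (Zfp444) and 0.64 (Adora1).

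**Figure D4:**
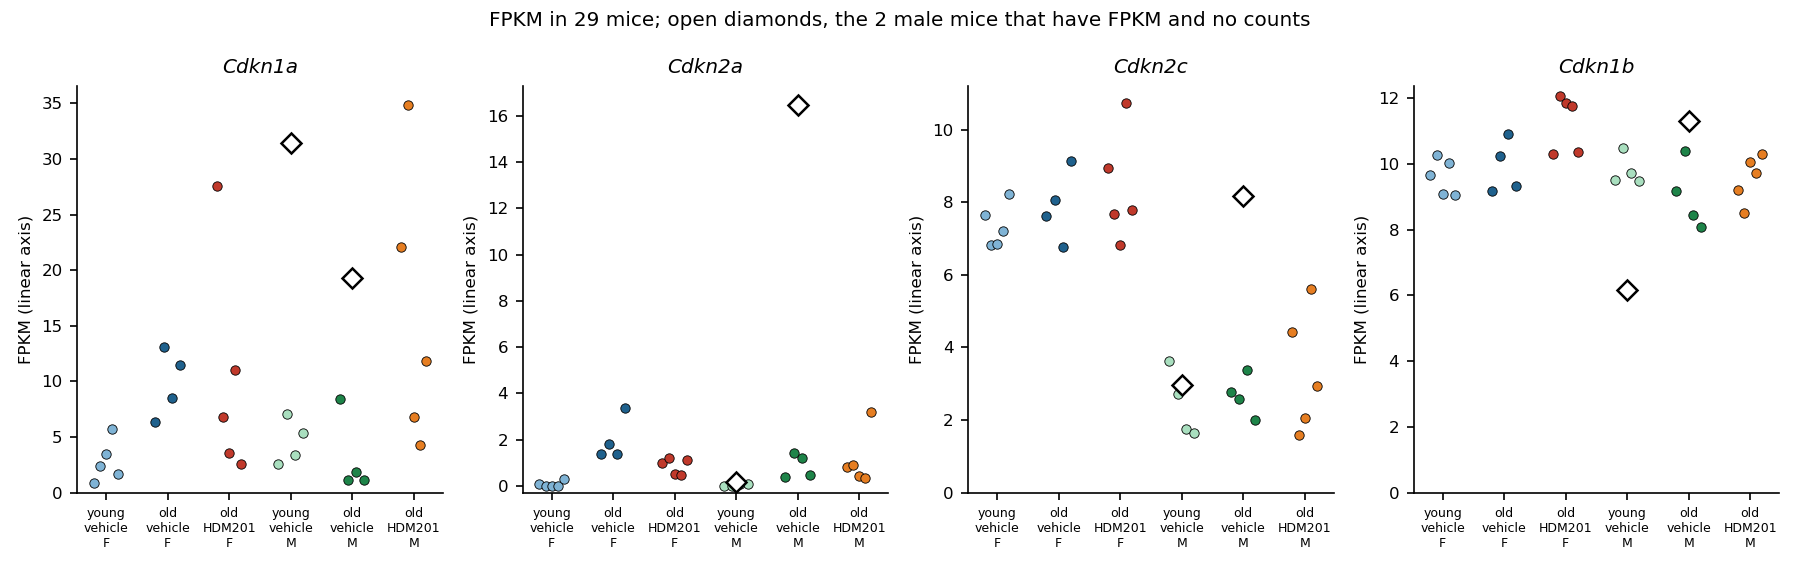
FPKM of Cdkn1a, Cdkn2a, Cdkn2c and Cdkn1b (linear axes) in the 29 mice, by group; filled points are mice with counts and open diamonds the mice with FPKM only. Old vehicle male 1 was above the other old vehicle males for all 4 genes, most in Cdkn2a at 16.5 FPKM, and young vehicle male 5 was the highest young male in Cdkn1a and the lowest of all mice in Cdkn1b. In old vehicle male 1 the median FPKM of expressed genes was also above the other old vehicle males, 9.62 against 6.23 to 6.80.

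The 2 males without counts stood apart from their groups on the FPKM scale. In old vehicle male 1 the median over 12053 genes with a mean of at least 1 FPKM was 9.62. In the other old vehicle males it was 6.23 to 6.80. The FPKM of the CDK inhibitors summed to 61.8 in this mouse and to 15.3 to 25.5 in those males. Cdkn1c, at 0.977 FPKM, lay within their range of 0.774 to 1.48 FPKM. Cdkn2b was at 0.642 FPKM against 0.102 to 0.633 FPKM. In old vehicle male 1 Cdkn2a was at 16.5 FPKM against 0.382 to 1.43 in the other old vehicle males, and at most 3.38 FPKM in any other mouse. In the same mouse Cdkn1a was at 19.3, Cdkn2c at 8.18 and Cdkn2d at 4.95 FPKM. Its Mki67 was 7.88 FPKM against 0.0209 to 0.213 in the other old vehicle males, its Top2a 16.6 FPKM and its Trp53 26.0 FPKM. Its hepatocyte markers summed to 44572 FPKM against 57211 to 80423 in the others, and its markers of macrophages (1140 against 158 to 460), B and plasma cells (643 against 110 to 200) and cholangiocytes (235 against 38.6 to 57.5) were higher. In young vehicle male 5 Cdkn1a was at 31.4 FPKM against 2.59 to 7.09 and Cdkn1b at 6.16 FPKM against 9.48 to 10.5. Its neutrophil markers summed to 609 FPKM against 0.524 to 5.13. Its markers of macrophages (450.1 against 87.8 to 183), erythroid cells (4573 against 810.0 to 1427) and cholangiocytes (90.4 against 21.4 to 31.2) were higher too, and its hepatocyte markers were at 51638 against 54342 to 63359 FPKM. The study's methods state that 1 young male was left out for an open wound and suspected infection. The labels do not say which mouse that was. With old vehicle male 1 included, limma on log2(FPKM + 1) gave HDM201 minus vehicle in males of -0.56 for Cdkn2a and -0.11 for Cdkn2c, opposite in sign to the counts, and neither was called. The part of other cell types in these values was not tested, and no edgeR or DESeq2 result includes these mice.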

How the data were processed

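Whole-liver RNA was sequenced by the study, aligned to mm10 with STAR in 2-pass mode, counted on genes with HTSeq and summarized as FPKM with Cufflinks (study's methods and submitters' processing notes). The authors deposited the counts as whole numbers without normalization for 27 mice and FPKM, scaled by length and library, for 29. Whether counting used strand is not stated, so reads of AC167363.2, which shares 273 exonic bases with Cdkn1a on the other strand (124 counts against 7674), cannot be told apart. Empty FPKM cells were read as 0, since 94.8% of those in mice with counts have a count of 0.

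The 7 members and all lists were chosen with earlier results of these data known. Only the groups of a comparison entered its fit, in R 4.3.3 with edgeR 4.0.16 (filterByExpr, minimum count 10 and total 15, TMM, quasi-likelihood F test, Benjamini-Hochberg), tested first on simulated counts. SE is the absolute log2 fold change over the root of F. Depth was 16485900 to 23570458 counts per mouse. Alternatives were DESeq2 1.42.0 (a missing adjusted p stayed missing), RLE size factors, no filter, all 6 groups in a single fit, a block for the replicate number, leaving out each mouse in turn, and limma 3.58.1 on log2(FPKM + 1) and log2(FPKM + 0.1). The last was also run on mice with counts only, an alternative chosen after seeing the data. In 0 of 15 pairs of groups did every same-numbered pair correlate above 0.1, so replicate numbers were not taken to pair mice. A single low pair fails this rule, so it cannot tell whether some numbers mark a shared cage or day. P-values measure the spread between mice labelled as separate samples. Named were every CDK inhibitor, of each list up to 3 called genes with the largest change, 12 fixed genes of the cycle and p53, and the 5 genes most like each member (mean CPM of at least 1). Any other gene was picked with its values in view. Gene positions are those of GENCODE on GRCm38, and promoters are from RefSeq (GRCm38.p6). Drawing used Python 3.11.15 and matplotlib 3.10.9.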

Additional observations from a re-analysis of the deposited data

Results flagged for a closer look

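In 56 groups of 4 to 5 mice, each gene's highest and lowest value was compared with the rest of its group, and 6 values, from 4 mice, stood far from the others. Chance alone marks about 1 in 20 groups. Old vehicle male 2 had Cdkn1a at 16.1 CPM while the other 3 with counts had 2.15 to 3.62 CPM, and its removal changes the comparison of age in males, as given above. Young vehicle female 4 had Cdkn2b at 0.632 CPM against 0.246 to 0.318 CPM, from 11 reads. Young vehicle male 5, which has no counts, had Cdkn1a at 31.4 FPKM and Cdkn1b at 6.16 FPKM. Old vehicle male 1, which has no counts either, had Cdkn2a at 16.5 FPKM and Cdkn2c at 8.18 FPKM.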

How the results depend on the processing

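At this depth Cdkn2a and Cdkn2b had at most 45 and 26 reads in a mouse, which limits what could be called for them, and the spread of Cdkn1a limits its comparisons. The 2 CDK inhibitors called between the young sexes were called under all alternatives except the replicate block (1, Cdkn2c alone, with Cdkn1c at FDR 0.0609). With age in females 4 were called, and 2 without the filter, 1 in the fit of all 6 groups (Cdkn2a), 2 with the replicate block (Cdkn1c at FDR 0.0872 and Cdkn2b at 0.112 not called), and 2 to 4 with a mouse left out, 2 without old vehicle female 3. With HDM201 in females DESeq2 called 1 (Cdkn2a) in place of 0. With age in males 1 was called in place of 0 by DESeq2, without the filter, in the fit of all 6 groups and by limma on log2(FPKM + 0.1) in mice with counts (Cdkn2a each time), and 0 to 1 with a mouse left out (Cdkn1a without old vehicle male 2). In old HDM201 against young females the count of 1 became 2 without the filter and in the fit of all 6 groups, 0 with the replicate block (Cdkn1a 1.36, FDR 0.140), and 0 to 2 with a mouse left out. DESeq2 and limma on FPKM also called 1 there, but Cdkn2a in place of Cdkn1a. In old HDM201 against young males the count of 0 became 1 with DESeq2 and with limma on log2(FPKM + 0.1), 2 without the filter and in the fit of all 6 groups, and 0 to 1 with a mouse left out. For sex and age together 0 became 1 without the filter (Cdkn1a), 1 by limma on FPKM in each form (Cdkn1c), and 0 to 1 with a mouse left out (Cdkn1a without old vehicle male 2). The causes were not tested.

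Over all genes, 758 were called with HDM201 in females, and 1330 by DESeq2, 208 in the fit of all 6 groups, 366 with the replicate block and 51 by limma on log2(FPKM + 1). With HDM201 in males 1 was called and 162 by DESeq2. With age in males 507 were called, 1318 by DESeq2, 2007 in the fit of all 6 groups and 29 with the replicate block. Between the young sexes 1462 were called, 2483 in the fit of all 6 groups and 858 with the block.

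Signs turned only for differences that were not called. By limma on log2(FPKM + 1) and on log2(FPKM + 0.1) in every mouse these were Cdkn1a with HDM201 in females (-0.31 and -0.38), Cdkn1b (0.018 and 0.020), Cdkn2a (-0.56 and -0.75) and Cdkn2c (-0.11 and -0.14) with HDM201 in males, Cdkn1b with age in females (0.038 and 0.041) and in males (0.066 and 0.074), Cdkn2c with age in males (0.34 and 0.43), Cdkn1b in old HDM201 against young males (0.084 and 0.094) and between the young sexes (0.093 and 0.10), Cdkn2c for sex and HDM201 (0.18 and 0.21), and for sex and age Cdkn1b (-0.028 and -0.033), Cdkn2c (-0.25 and -0.33) and, on the first scale, Cdkn2a (-0.00064). In mice with counts the second scale gave Cdkn1b 0.085 with HDM201 in males, Cdkn2c 0.18 with age in males, Cdkn2b -0.094 for sex and HDM201, and Cdkn2c -0.079 for sex and age. The replicate block turned Cdkn2c with age in males (0.17) and Cdkn2b for sex and age (-0.045), where DESeq2 gave -0.0017, RLE size factors -0.0025 and the fit of all 6 groups -0.012.

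Leaving out mice turned Cdkn1a (-0.71 to 0.37), Cdkn1c (-0.13 to 0.11), Cdkn2b (-0.35 to 0.24) and Cdkn2d (-0.15 to 0.0099) with HDM201 in females, Cdkn1b (-0.11 to 0.0098), Cdkn2a (-0.32 to 0.61), Cdkn2c (-0.055 to 0.42) and Cdkn2d (-0.015 to 0.30) with HDM201 in males, Cdkn1c (-0.23 to 0.058) and Cdkn2c (-0.16 to 0.089) with age in males, Cdkn2c in old HDM201 against young males (-0.074 to 0.40), Cdkn2c for sex and HDM201 (-0.31 to 0.16) and Cdkn2b for sex and age (-0.32 to 0.32).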
